A study of Mus musculus with 2 samples.

Results

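The insulin-like growth factor (IGF) binding proteins, encoded by *Igfbp1* to *Igfbp7*, were described from 2 Affymetrix MOE430A arrays of mouse cochlear RNA. All probe sets that the platform annotation pairs with only 1 of these 7 symbols were taken, which gave 15 of the 22626 probe sets that are not controls and 7 of 12393 genes. The arrays hold RNA of E18.5 cochleae on a C57BL/6J background, dissected with the otic capsule and without vestibular tissue, from crosses of mice heterozygous for a targeted disruption of *Igf1*. The labels give 8 cochleae for each array. The methods describe pools of cochleae from 2 embryos, with 3 pools per genotype, so a column of values may stand for 1 array or for several. On this background the null embryos die at birth, per the methods.

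The study asked which cochlear transcripts depend on IGF-I, but the labels of these arrays contradict each other. For the array with +/+ in its title, the source name and the description give the null genotype, and for the array with -/- in its title they give the wild type. Which genotype each array holds is therefore unsettled, and "+/+" array and "-/-" array are used here as names taken from the titles. Each difference is the "-/-" array minus the "+/+" array, and by genotype it turns sign if the source names hold. *Igf1*, the targeted gene, was at a log2 level of 11.42 on the "+/+" array and 11.03 on the "-/-" array for its strongest probe set, and all 3 of its probe sets were lower on the "-/-" array, with differences of -0.42, -0.75 and -0.58. These probe sets may lie outside the disrupted part of the gene, whose position was not stated. This was not tested, and the probe sets do not settle the labels. With 1 array per title there was no replicate, no test was made, and the 2 arrays limit the precision of every value.

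IGF binding proteins are secreted proteins that hold IGF-I and IGF-II in the circulation and around cells, and so set how much growth factor reaches the IGF1R receptor. Proteases such as PAPP-A cut them and release the bound factor, and several of them also bind matrix or cell surfaces. IGFBP3 carries most circulating IGF, IGFBP2 and IGFBP6 favour IGF-II, IGFBP4 mainly inhibits IGF action, IGFBP5 is abundant in bone and its matrix, and IGFBP7 binds IGFs weakly. *Igfbp1* is best known from liver, where insulin represses it through FoxO factors. In the order of the genome, *Igfbp2* and *Igfbp5* are neighbours on chromosome 1 and *Igfbp1* and *Igfbp3* are neighbours on chromosome 11, with no other protein-coding gene between them in the RefSeq annotation. *Igfbp4* lies elsewhere on chromosome 11, *Igfbp6* on chromosome 15 and *Igfbp7* on chromosome 5.

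The 250 bases before the annotated start are shown for the gene listed at 0 on both arrays, for the gene with the strongest probe set and for the gene with the largest difference among the strongest probe sets. They are RefSeq sequences of GRCm38.p6, 5′ to 3′ on the strand of the gene, and capitals mark TATAAA, the core of the TATA box, and CAAAACAA, a part of the insulin response sequence known from the *Igfbp1* promoter, on either strand.
*Igfbp1*, chr11:7197537-7197786, plus strand: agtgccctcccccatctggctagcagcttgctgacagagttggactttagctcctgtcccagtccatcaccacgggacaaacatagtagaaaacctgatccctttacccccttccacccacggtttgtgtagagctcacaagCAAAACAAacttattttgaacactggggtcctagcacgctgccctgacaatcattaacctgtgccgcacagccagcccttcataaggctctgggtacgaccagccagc
*Igfbp4*, chr11:99040994-99041243, plus strand: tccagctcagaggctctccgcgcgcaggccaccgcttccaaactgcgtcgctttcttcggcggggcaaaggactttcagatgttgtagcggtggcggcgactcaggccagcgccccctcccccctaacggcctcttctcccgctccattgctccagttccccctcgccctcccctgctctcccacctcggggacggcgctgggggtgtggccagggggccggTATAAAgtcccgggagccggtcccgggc
*Igfbp6*, chr15:102143936-102144185, plus strand: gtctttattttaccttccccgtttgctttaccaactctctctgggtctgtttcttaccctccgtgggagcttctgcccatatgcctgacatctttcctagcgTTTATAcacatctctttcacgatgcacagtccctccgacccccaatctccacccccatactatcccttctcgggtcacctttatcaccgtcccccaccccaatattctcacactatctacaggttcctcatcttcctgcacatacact

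Among the 8 windows of the 7 genes, of which *Igfbp2* has 2, CAAAACAA was found only before *Igfbp1*, from 108 to 101 bases ahead of the start. It was present in 2.21% of the 32851 promoter windows of this length. TATAAA was found before *Igfbp4*, from 28 to 23 bases ahead of the start, and on the opposite strand before *Igfbp6*, from 148 to 143 bases ahead of it. It was present in 12.4% of all windows. The G and C content was 74.0% for *Igfbp7*, 73.2% for *Igfbp3* and 69.2% for *Igfbp4*, against 49.6% for *Igfbp6*, 53.2% for *Igfbp1* and a median of 52.4% over all windows. These matches are a description of letters, and factor binding was not measured.

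By their strongest probe sets, 6 of the 7 genes were above the median level of all probe sets, 6.60 on the log2 scale, on both arrays. *Igfbp4* was at 12.26 on the "+/+" array and 12.24 on the "-/-" array, with *Igfbp5* next at 12.16 and 12.05. *Igfbp2* followed at 11.17 and 11.10. These levels lay above those of at least 97.8% of all probe sets on the same array. *Igfbp3* was at 9.81 on the "+/+" array and 9.54 on the "-/-" array, and *Igfbp7* at 9.73 on both. *Igfbp6* was the lowest of those above the median, at 7.12 and 7.77, which is the 57.9th and the 68.0th percentile of all probe sets. *Igfbp1* was listed at exactly 0 on both arrays, as were 694 probe sets in all.

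**Figure D1:**
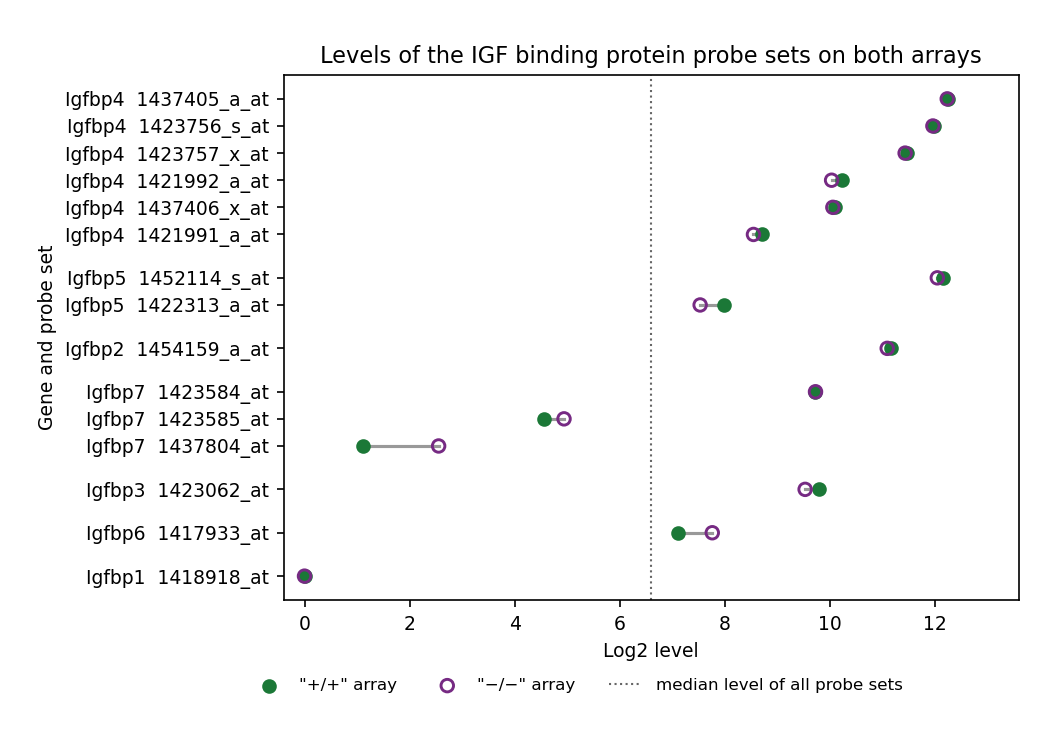
Log2 level of the 15 probe sets of *Igfbp1* to *Igfbp7* on the "+/+" array (green discs) and the "-/-" array (purple rings), with 1 value per array and a grey line between the 2. The 6 *Igfbp4* probe sets run from 8.63 to 12.25 in mean level and the 3 of *Igfbp7* from 1.84 to 9.73, and only *Igfbp6* and the weaker *Igfbp7* probe sets are visibly higher on the "-/-" array.

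The order of the genes was the same on both arrays except for *Igfbp3* and *Igfbp7*. *Igfbp3* had rank 4 on the "+/+" array, 0.08 above *Igfbp7*, and rank 5 on the "-/-" array, 0.20 below it. *Igfbp4* and *Igfbp5* lay 0.09 apart on the "+/+" array and 0.19 apart on the "-/-" array, while *Igfbp5* lay 0.99 and 0.95 above *Igfbp2* on the same arrays. A probe set's signal also depends on its probes, so this order describes signal and not amounts of transcript. Probe sets of the same gene show how far this goes. The 6 of *Igfbp4* spanned 3.55 log2 units on the "+/+" array, the 2 of *Igfbp5* spanned 4.17 and the 3 of *Igfbp7* spanned 8.61, all wider than the gaps between neighbouring genes from *Igfbp4* down to *Igfbp6*. With the signals of all probe sets of a gene averaged, *Igfbp2* had rank 1 on both arrays and *Igfbp7* rank 6. Without probe sets of the _x_at and _s_at kinds, which can also match other transcripts, *Igfbp5* had rank 5 on the "+/+" array and rank 6 on the "-/-" array.

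Of the 6 genes above 0, 5 were lower on the "-/-" array and *Igfbp6* was higher. Over all genes not at 0 on both arrays, 48.2% were lower on that array. No member differed by more than 1 log2 unit, the size limit of the study's methods, in its strongest probe set. Of genes in all, 9.83% passed that limit. The median of the 6 differences was -0.06, after the median of all probe sets, 0.022, had been subtracted from every difference, and the median over all genes was 0.0083. Among the 12 member probe sets above the median level, 11 were lower on the "-/-" array, against 49.7% of all probe sets above that level, but 6 of the 12 read *Igfbp4* and are not independent. None of the 12 passed 1 log2 unit, as did 0.38% of all probe sets above the median level.

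*Igfbp6*, the binding protein that prefers IGF-II, gave the largest difference among the strongest probe sets. Its only probe set was at 7.12 on the "+/+" array and 7.77 on the "-/-" array, a centred log2 difference of 0.62 or a ratio of 1.54. All probe sets were split by mean level into 4 bins of equal size. In the bin from 6.60 to 8.19, which holds *Igfbp6*, 2.44% were higher on the "-/-" array by more than 0.5, and 1.89% differed by at least as much as *Igfbp6* in either direction. Probe sets of the same gene within that bin differed from one another with an SD of 0.17. The *Igfbp6* difference was larger than that spread, which is between probe sets and not between animals.

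*Igfbp3* had the largest difference in the other direction among the strongest probe sets. Its only probe set, 1423062_at, was at 9.81 on the "+/+" array and 9.54 on the "-/-" array, a difference of -0.30 and a ratio of 0.81. In the top bin, with levels above 8.19, 5.90% of probe sets differed by at least that much, and the SD between probe sets of the same gene was 0.095. *Igfbp3* was thus lower by more than that spread, and the *Igfbp6* and *Igfbp3* differences lay 0.92 apart.

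*Igfbp5* was lower on the "-/-" array in both of its probe sets, though by unequal amounts. The stronger one, 1452114_s_at, was at 12.16 and 12.05, in the order "+/+" and "-/-", a difference of -0.13 that 29.6% of probe sets in its bin reached. The weaker one, 1422313_a_at, was at 7.99 and 7.54, a difference of -0.48 that 4.01% of probe sets in the bin from 6.60 to 8.19 reached. Both exceeded the SD between probe sets of the same gene in their bins, 0.095 and 0.17. *Igfbp2*, its neighbour on chromosome 1, was at 11.17 and 11.10, a difference of -0.09. That is within the same SD, and 45.8% of probe sets in its bin differed by as much.

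All 6 probe sets of *Igfbp4* were lower on the "-/-" array, by amounts between 0.03 and 0.23 on the log2 scale. The strongest, 1437405_a_at, was at 12.26 and 12.24, a difference of -0.03 that 77.6% of probe sets in the top bin reached. The probe sets 1423756_s_at, 1423757_x_at and 1437406_x_at had differences of -0.05, -0.05 and -0.06. Larger ones were read by 1421992_a_at, at 10.24 and 10.04 with a difference of -0.23, and by 1421991_a_at, at 8.71 and 8.55 with a difference of -0.18. Only these 2 exceeded the SD of 0.095 between probe sets of the same gene. In the top bin, 6 of 10 member probe sets lay within 0.1 of no difference, as did 57.7% of all probe sets there.

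The 3 probe sets of *Igfbp7*, the weak IGF binder that endothelial cells also make, gave different readings. The strongest, 1423584_at, was at 9.73 on both arrays, with a difference of -0.02 that 87.3% of probe sets in its bin reached, and it was 0.0022 without centring. The next, 1423585_at, was at 4.56 on the "+/+" array and 4.94 on the "-/-" array, a difference of 0.36 against an SD of 0.45 in its bin. The weakest, 1437804_at, was at 1.12 and 2.55, a difference of 1.42. It was the only 1 of the 15 member probe sets past 1 log2 unit, a size that 11.3% of all probe sets passed. In the lowest bin, 20.5% were higher on the "-/-" array by more than 1, and this difference was 0 once both arrays had a floor at their 25th percentile.

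**Figure D2:**
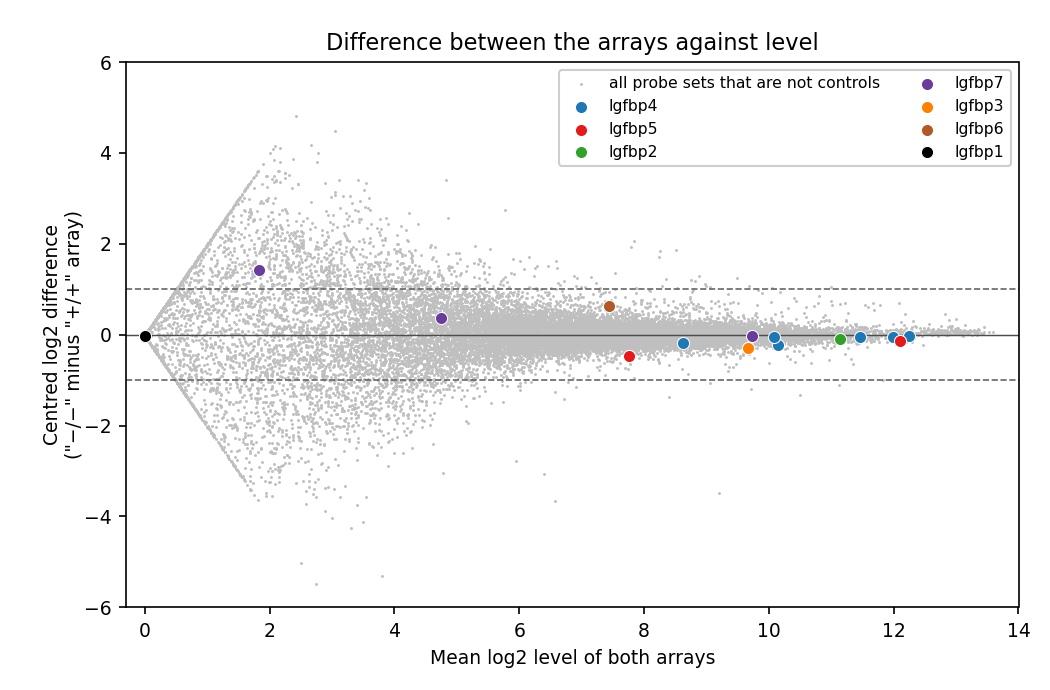
Centred log2 difference ("-/-" minus "+/+") against the mean log2 level of both arrays, with all 22626 probe sets that are not controls in grey and the 15 member probe sets in colour. The dashed lines mark 1 and -1. The grey cloud is widest at low level, where the *Igfbp7* point at 1.42 lies inside it, while *Igfbp6* at 0.62 lies at the upper edge of the cloud for its level.

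The directions of the strongest probe sets held under 4 other ways of scaling, apart from *Igfbp7*, whose difference was 0.0022 without centring. *Igfbp6* ranged from 0.62 to 0.65 over these scalings and *Igfbp3* from -0.30 to -0.27. *Igfbp5* ranged from -0.17 to -0.11, *Igfbp2* from -0.11 to -0.07 and *Igfbp4* from -0.07 to -0.01.

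**Figure D3:**
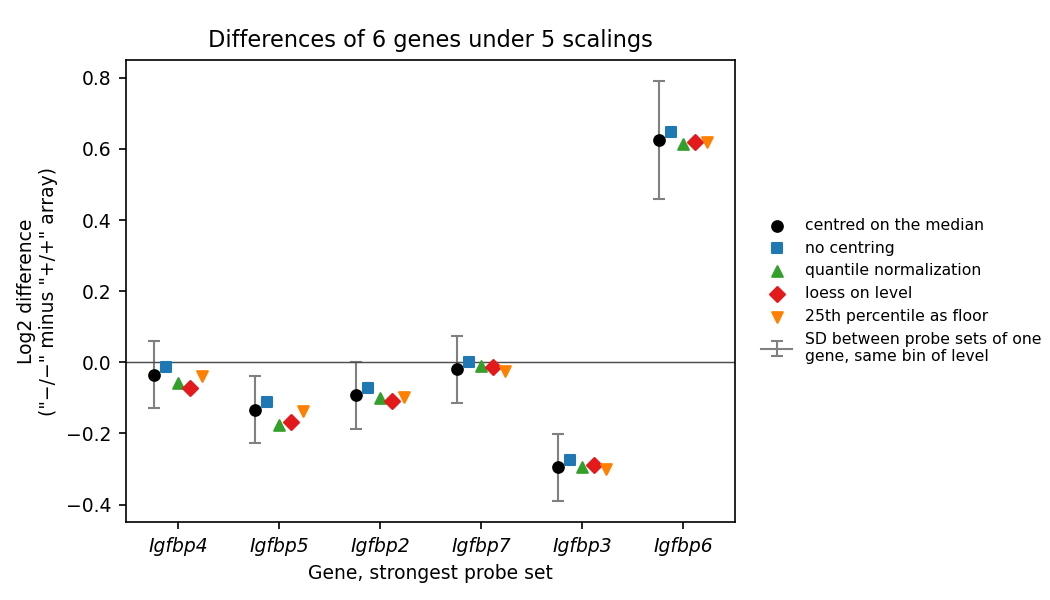
Log2 difference ("-/-" minus "+/+") of the strongest probe set of 6 genes under 5 ways of scaling the arrays. Grey bars are the SD between probe sets of the same gene in the same bin of level, 0.17 for *Igfbp6* and 0.095 for the others, and *Igfbp6* lies above 0.6 under each scaling while the others lie at or below about 0.

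The ligands and receptors that the binding proteins act on were compared beside them. Of 8 genes, 7 were measured, 4 higher and 3 lower on the "-/-" array, with a median difference of 0.05. *Igf2*, the fetal growth factor, was at 13.12 on the "+/+" array and 13.20 on the "-/-" array, a difference of 0.05. *Igf2r*, which clears IGF-II, differed by -0.03 at levels of 10.13 and 10.12. *Igf1r*, the signalling receptor, was at 8.50 and 8.73, a difference of 0.21 in the direction of *Igfbp6*. *Ins2* and *Insrr*, with differences of 1.01 and 2.75, passed 1 log2 unit at mean levels of 4.50 and 3.61, below the median of all probe sets. Whether these signals were above background was not tested. In the bins of level that hold *Ins2* and *Insrr*, 6.84% and 3.73% of probe sets moved by as much or more.

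Of 19 partners, proteases and protease inhibitors of the binding proteins, 17 were measured, and 10 were higher and 7 lower on the "-/-" array, with a median of 0.19. The 4 of the highest level were *Mmp2*, *Mmp14*, *Ctsd* and *Htra1*. The metalloproteinase gene *Mmp2* was at 11.39 on the "+/+" array and 11.25 on the "-/-" array, a difference of -0.16, and *Mmp14*, which activates its product, differed by -0.19. *Ctsd*, a lysosomal protease gene, differed by 0.0070 and *Htra1*, a secreted serine protease gene, by -0.25. *Pappa*, whose product cuts IGFBP4, was at 6.43 and 6.63, a difference of 0.19, and *Stc1*, a stanniocalcin gene, at 7.27 and 6.87, a difference of -0.43. *Igfals*, the partner of IGFBP3 in serum, was at 4.15 and 4.40, just above the 25th percentile of each array, 4.09 and 4.13. By strongest probe sets, *F2* was the only gene of the list past 1 log2 unit, at 1.05. Its mean level of 4.54 was also below the median of all probe sets, and 5.98% of probe sets in its bin moved by as much. Weaker probe sets of *Adam28* and *Stc2* passed 1 log2 unit too, at 2.54 and -1.59, as did 11.3% of all probe sets in either direction. The strongest probe sets of these genes differed by 0.40 and 0.38. Their mean levels of 5.65 and 4.33 were below the median of all probe sets, and the weaker ones lay lower still. Among the 9 genes of the list above the median level, 3 were higher and 6 lower, with a median of -0.18. *Mmp9*, 1 of the higher genes there, was at 8.10 on the "+/+" array and 8.63 on the "-/-" array. Its difference of 0.50 was reached by 1.96% of probe sets in its bin, against 65.7% for *Pappa* and 5.66% for *Stc1*. *Pappa*, *Stc1* and *Igfals* were named for their role and *Mmp9* for its difference, and not by the rule for named genes.

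Genes of the wider superfamily, whose products share the IGF binding domain at the amino terminus, were split in a similar way. Of 13 genes, 11 were measured, 6 higher and 5 lower on the "-/-" array, with a median of 0.02, and *Htra1* also stands in the list above. *Ctgf*, a matricellular growth regulator, was at 10.88 and 11.02, a difference of 0.12. *Nov* and *Cyr61* of the same family differed by -0.29 and -0.30, at levels from 9.11 to 10.08. *Igfbpl1*, at levels of 2.20 and 3.26, below the median of all probe sets, was the only gene past 1 log2 unit, at 1.04. In its bin of level, 36.1% of probe sets moved by as much or more. Above the median level, 3 genes were higher and 5 lower, with a median of -0.18.

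Markers of several tissues and cell types also differed between the arrays. In bulk RNA, fewer cells of a type and less RNA per cell cannot be told apart. The otic mesenchyme markers were all lower on the "-/-" array, 6 of 6 with a median of -0.38, and their mean log2 level was 9.61 on the "+/+" array and 9.23 on the "-/-" array. *Otor*, whose probe set gave the strongest signal of them, was at 12.57 and 12.37, *Pou3f4* differed by -0.64, *Coch* by -0.40 and *Tbx1* by -0.13. *Igfbp3* and *Igfbp5* differed in the same direction as this list, by more than the SD between probe sets of the same gene. The strongest probe sets of *Igfbp2*, *Igfbp4* and *Igfbp7* were also lower, but their differences of -0.09, -0.03 and -0.02 were within that SD. The part of the mesenchyme list in the member differences was not tested.

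Skeletal muscle markers were higher on the "-/-" array in 8 of 8 genes, with a median of 1.05 and mean levels of 9.45 and 10.49 in the order "+/+" and "-/-". Endothelial markers were higher there in 6 of 6, with a median of 0.28 and mean levels of 7.42 and 7.71. Many of these differences were common for their level. The share of probe sets in the same bin that differed by as much ran from 9.39% for *Tie1* to 79.5% for *Kdr*. Both lists moved in the direction of *Igfbp6*, and their part in its difference was not tested. Cartilage and bone markers were higher in 5 of 6 genes but with a median of 0.03, at mean levels of 11.27 and 11.33. The lower gene was the bone marker *Sp7*, at -0.30, and the bone markers *Runx2* and *Bglap* were not measured.

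Lung epithelium markers were lower on the "-/-" array in 6 of 6 genes with a median of -2.46, at mean levels of 6.58 and 3.99. Of the 6, 2 were above the median level of all probe sets. These were *Sftpc*, at 10.94 on the "+/+" array and 7.47 on the "-/-" array, and *Sftpb*, at 7.41 and 6.01. The 2 probe sets of *Sftpa1* differed by -4.13 and 0.68, and the 2 of *Sftpc* by -3.49 and -0.90. *Nkx2-1* differed by -0.56, which 57.5% of probe sets in its bin reached. Liver markers were lower in 5 of 5 with a median of -2.56, at mean levels of 6.20 and 3.73, but only 1 of the 5 was above the median level of all probe sets. That gene, *Ttr*, was at 12.32 and 11.34 and weighs heavily in these means, as the next, *Alb*, was at 6.14 and 4.22. Probe sets of the liver list also gave unequal readings, with differences from -4.26 to 0.67 over the 5 of *Afp* and a mean of -0.96 over the 4 of *Apoa1*, the gene at the list median. *Fgb* was listed at 0 on both arrays, as was the liver-enriched *Igfbp1*. Of these liver markers *Ahsg* was at 2.64 on the "+/+" array and listed at 0 on the "-/-" array. Hair cell markers were higher in 2 and lower in 3 of 5 genes, with a median of -0.08 at mean levels of 5.92 and 5.89. On the controls for *Gapdh*, signal at the 3′ end was above that at the 5′ end by 0.27 ("+/+" array) and 0.36 ("-/-" array), and the part of RNA quality in any difference was not tested.

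**Figure D4:**
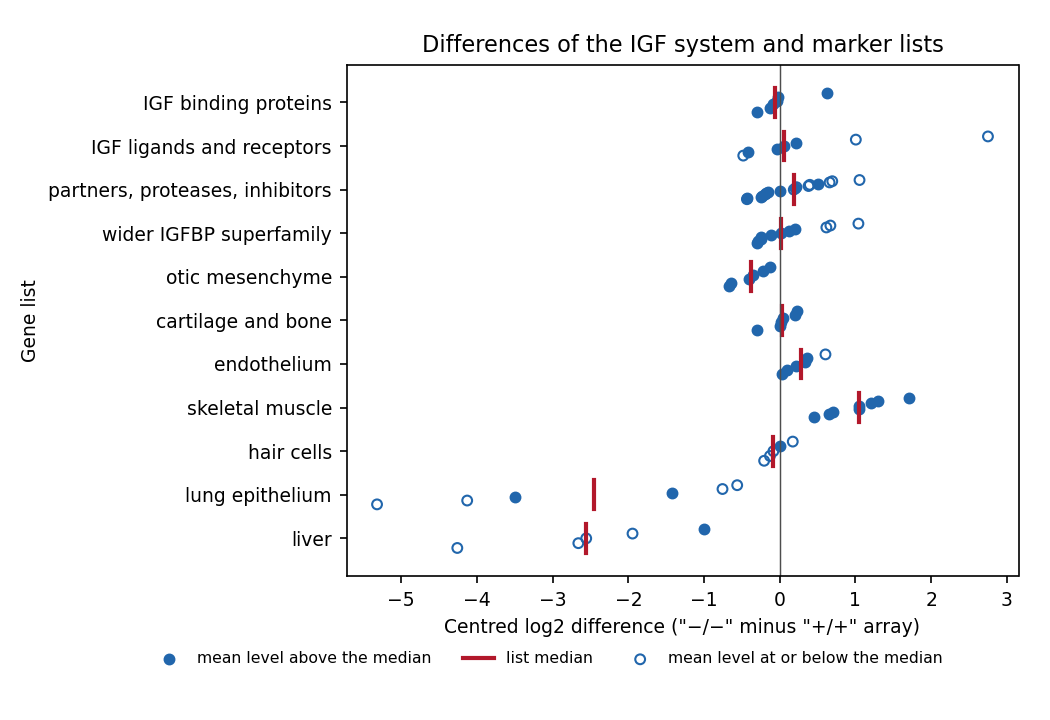
Centred log2 difference ("-/-" minus "+/+") of each measured gene, by list, with filled points above and open points at or below the median level and a red bar at the list median. The IGF binding proteins lie within 0.3 of 0 except *Igfbp6*, all skeletal muscle points lie to the right of 0 and all lung and liver points to the left.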

How the data were processed

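Pooled cochlear RNA was labelled and hybridised to MOE430A arrays by the authors, who deposited 2 columns with 1 level per probe set. These deposited values run from 0 to 13.67 and were taken as log2 levels from that range and from the log2 units in which the authors' methods state fold changes. The table itself names no base. The methods name MAS5.0, RMA and multi-mgMOS of PUMA. Which of them was used for these values, and how the arrays were scaled, were not given in the sources used here. Of 22690 probe sets, 64 controls were left out. Gene names came from the platform annotation, and no probe set paired with several symbols held a member. A gene is represented by its strongest probe set by mean level. Differences were centred on their median over all probe sets, and a gene at 0 on both arrays entered no count of directions. As a yardstick, probe sets were split into 4 bins of equal size by mean level, and the pooled SD between probe sets of the same gene was taken within each.

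With 1 array per title, no test, interval or p-value was computed. Members and lists were chosen with earlier results of these data known. All member probe sets are named, and of other lists the 4 genes of the highest level and those past 1 log2 unit above the median level, of which not all are given; the rest were chosen after their values were seen. Alternatives were no centring, quantile normalization, loess with a span of 0.3, a floor at the 25th percentile, averaged probe sets, no _x_at or _s_at probe sets, genes above the median level, and limits of 0.5 and 2. The steps were tested on simulated arrays. Protein features of the members were planned but no protein sequences were used here. Python 3.11.15, numpy 2.4.6, pandas 2.3.3, statsmodels 0.14.6 and matplotlib 3.10.9 were used.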

Additional observations from a re-analysis of the deposited data

How the results depend on the processing

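No paired analysis was possible because each title has 1 array. Under all 4 scalings, the differences of 14 member probe sets moved by less than the SD between probe sets of the same gene, with 1 exception. The exception was the weakest *Igfbp7* probe set, which was 0 with a floor at the 25th percentile. In the top bin that SD, 0.095, is larger than several of the differences themselves, so a move within it does not show that these kept their size. The number of members higher on the "-/-" array was 2 in place of 1 without centring and with probe sets averaged, where *Igfbp7* joined *Igfbp6*. With a limit of 0.5, 1 member in place of 0 and 2 member probe sets in place of 1 passed, and no probe set passed with a limit of 2 or with that floor. With probe sets averaged, the ranks on both arrays were 1 for *Igfbp2*, 2 for *Igfbp4*, 3 for *Igfbp5*, 4 for *Igfbp3*, 5 for *Igfbp6* and 6 for *Igfbp7*. Without _x_at and _s_at probe sets, *Igfbp2* ranked 2, *Igfbp3* 3 on the "+/+" array and 4 on the "-/-" array, *Igfbp7* 4 and 3, *Igfbp5* 5 and 6, and *Igfbp6* 5 on the "-/-" array. The median of the partners and proteases was 0 with that floor, 0.0070 with averaged probe sets and -0.18 above the median level, where 3 were higher. That of the wider superfamily was -0.081 and -0.18 under the last 2 of these, with 3 higher above the median level, and of the ligands and receptors 2 were higher there. The lower counts above the median level come from fewer genes, and the cause of the other changes was not tested. Up to a level of 4.05, the SD between probe sets of the same gene was 1.36.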
